A study of Rattus norvegicus with 56 samples.

Results

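The 61 genes described here are the rat genes whose symbols begin with Hsp, with Dnaj or with Cct and a number, as measured in the mammary gland of rats given a retinoid X receptor (RXR) treatment and of control rats. They were chosen by name alone from 10411 genes with a probe set of a single symbol, and each is represented by 1 probe set, the one with the highest mean over 24 single-rat arrays. RefSeq lists 87 protein-coding rat genes with such names. Another 4 probe sets carry several symbols with a name of this kind among them, so that Hsp90aa1, Hspa8 and Hspa1b have no value of their own here. Of the 61, 7 belong to the HSP70 family of the cytosol and nucleus and 2 to the HSP90 family. Another 5 act in mitochondria and 8 in the endoplasmic reticulum (ER). A further 6 encode small heat shock proteins, 23 other J proteins and 7 subunits of the cytosolic chaperonin CCT. The last 3 match by name but have no chaperone fold.

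Chaperones help proteins to fold, to cross membranes and to avoid aggregation. HSP70 proteins bind short stretches of unfolded chains in a cycle driven by ATP, J proteins (the Dnaj genes) bring them substrates and start that cycle, HSP90 proteins complete the folding of kinases and steroid receptors, and the chaperonins enclose a chain in a ring. Mitochondria, which import most of their proteins unfolded, hold their own HSP70, J proteins and chaperonin, and the secretory cells of a mammary gland rely on the chaperones of the ER. RXR is a nuclear receptor that pairs with the receptors for retinoids, fatty acids, vitamin D and thyroid hormone.

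Every animal was a female Wistar Furth rat. The treated group (12 rats, 6 in diestrus and 6 in proestrus or estrus) received what the labels call RXR treatment, with neither compound nor dose, and the control group had 12 rats (9 in diestrus and 3 in proestrus or estrus). Ages are not given in the labels. Each rat had 1 array, 2 more were run for rat 3 of either group, and labelled RNA of the same rats was also mixed into pools of 2 (6 treated and 6 control), pools of 3 (4 and 4) and 1 pool of all 12 rats per group, which was hybridised 4 times, for 56 arrays in all. The pools were mixed from the rats of the single arrays, so they repeat the measurement and add no animals. Array medians lay between 7.40 and 7.48 on the log2 scale, and no 2 arrays were identical.

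Promoters of genes from this set carry known heat and ER stress motifs, which are printed here because they group genes whose levels are described below. RefSeq (assembly GRCr8) gave the 300 bases around the start site of 51 of the 61 genes. The heat shock element, the binding site of the heat shock factors, was searched on both strands as GAA, any 2 bases, TTC, any 2 bases and GAA, and was found in 5 of the 51 promoters (9.80%) and in 0.736% of all 27457 promoters. Hspd1 and Hspe1, which encode the mitochondrial chaperonin and its lid, lie head to head on chromosome 9. The start sites used for their windows are 290 bases apart, and the windows share 211 bases. The RefSeq span of the Hspd1 gene ends at 64084332, past the start of Hspe1 at 64084327. The promoter below, on the strand of Hspe1, holds a pair of overlapping elements between bases -65 and -48 from the Hspe1 start site. The same pair is the match in the window of Hspd1. The stretches of the other 3 genes show 1 element each, on chromosomes 12 (Hsph1), 5 (Dnaja1) and 14 (Cct4), and in Dnaja1 and Cct4 the element lies behind the start site. Only exact matches were counted, and the windows of the heat-inducible Hspa1a and Dnajb1 held none. Capitals mark the heat shock elements.
Hspe1, chr9:64084077-64084326, plus strand: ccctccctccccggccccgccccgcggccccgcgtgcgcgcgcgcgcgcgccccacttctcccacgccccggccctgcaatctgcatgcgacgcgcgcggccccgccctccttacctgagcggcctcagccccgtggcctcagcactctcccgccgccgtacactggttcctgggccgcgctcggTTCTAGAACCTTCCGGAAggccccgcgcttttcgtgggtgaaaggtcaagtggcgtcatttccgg
Hsph1, chr12:10427312-10427364, plus strand: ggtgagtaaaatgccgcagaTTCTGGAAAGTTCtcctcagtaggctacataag
Dnaja1, chr5:60638405-60638433, plus strand: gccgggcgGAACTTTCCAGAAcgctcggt
Cct4, chr14:101193074-101193102, plus strand: gcgtcgctTTCTGGAAGGTTCgtggaggc

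The ER stress element, through which the unfolded protein response raises ER chaperones, was searched on both strands as CCAAT, any 9 bases and CCACG. It was found in 3 of the 51 promoters (5.88%), those of Hspa5, Hsp90b1 and Dnajc3, and in 0.0765% of all promoters. Hsp90b1 holds 2 of them. Capitals mark the ER stress elements.
Hspa5, chr3:38452766-38453015, plus strand: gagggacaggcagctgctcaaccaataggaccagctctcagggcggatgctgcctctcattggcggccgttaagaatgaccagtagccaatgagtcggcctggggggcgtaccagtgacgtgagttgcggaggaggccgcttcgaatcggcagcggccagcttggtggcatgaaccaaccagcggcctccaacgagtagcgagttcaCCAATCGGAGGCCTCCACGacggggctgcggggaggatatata
Hsp90b1, chr7:23012327-23012489, minus strand: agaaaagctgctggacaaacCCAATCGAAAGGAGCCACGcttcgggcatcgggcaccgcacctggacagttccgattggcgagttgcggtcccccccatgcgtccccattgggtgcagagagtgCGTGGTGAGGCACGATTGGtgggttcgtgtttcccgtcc
Dnajc3, chr15:102432514-102432572, plus strand: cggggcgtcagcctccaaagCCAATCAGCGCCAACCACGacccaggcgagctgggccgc

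Of the other motifs searched on both strands, CCAAT, which forms part of the ER stress element, stood in 45.1% of the members' promoters and 37.7% of all. The motif of the nuclear respiratory factor NRF1, GCGC, any base and TGCGC, stood in 5.88% and 4.71%. The direct repeat of AGGTCA with 1 base between its copies, which RXR can bind with a partner receptor, was in 0 of the 51 windows and in 0.0583% of all, and the estrogen-related receptor motif TNAAGGTCA was in 1.96% and 1.15%. A match says only that these letters occur in the window.

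The mitochondrial chaperones rose in treated rats, the one group whose members all passed the test. All 5 measured members were higher, with a median difference of 0.28 on the log2 scale, while the median over all 15866 probe sets was -0.00. Among all 61 genes, 7 rose and 3 fell at an adjusted p under 0.05 (limma, Benjamini-Hochberg over all probe sets), which is 16.4% of them, beside 18.1% of all probe sets. At an unadjusted p under 0.05 there were 16 of the 61 genes, beside 29.1% of all probe sets. The rises made up 11.5% of the 61 genes and 8.46% of all probe sets, and the falls 4.92% and 9.59%. The set as a whole was therefore called about as often as the array, with a median difference of 0.00, and 5 of its 7 rises were of mitochondrial genes. The roles were assigned with earlier results of these data known, so the split by role is no independent evidence. The plot of the 61 differences by role shows that split.

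**Figure D1:**
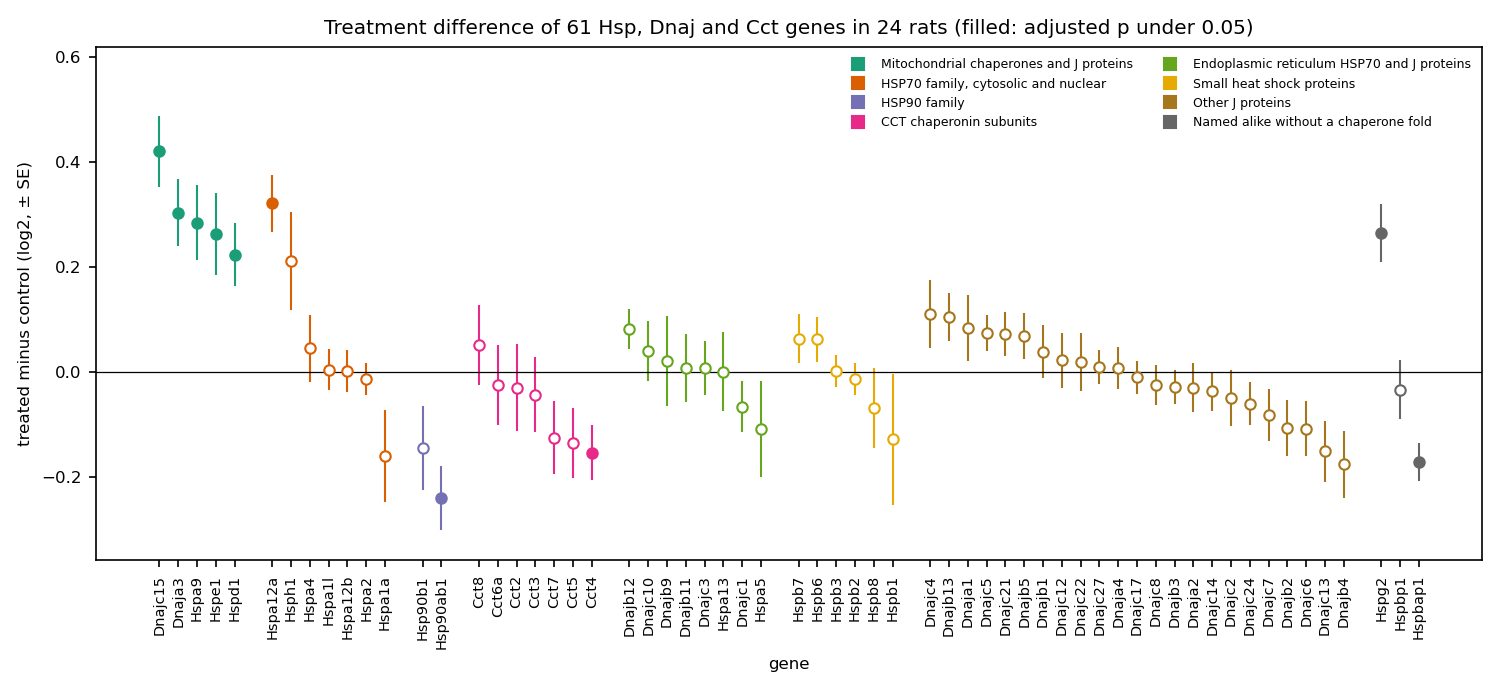
Treatment difference (treated minus control, log2, vertical axis, ± SE) of the 61 genes (horizontal axis), grouped and coloured by role, in 12 treated and 12 control rats. Filled points passed at an adjusted p under 0.05. All 5 mitochondrial genes are filled and lie between 0.22 and 0.42, while the 23 other J proteins lie between -0.18 and 0.11 with none filled.

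Marker genes of several cell types of the gland differed between treated and control rats in the same arrays. The 9 measured adipocyte markers averaged 10.91 ± 0.29 in treated rats and 10.49 ± 0.25 in control rats (SD, n = 12 each), with rats between 10.39 and 11.3 against 10.15 and 11.09, and 6 of the 9 rose while Cfd fell. The 11 luminal epithelial markers averaged 9.82 ± 0.15 in treated and 10.03 ± 0.11 in control rats, between 9.48 and 10.01 against 9.79 and 10.18, and 8 of the 11 fell. Of the 9 basal markers 4 fell and 1 rose, with means of 9.91 ± 0.21 and 10.13 ± 0.21 in treated and control rats. In the same test 8.46% of all probe sets were called higher and 9.59% lower. Epcam, an epithelial adhesion protein, stood at 11.39 and 11.82 in treated and control rats, and Fabp4, the fatty acid carrier of adipocytes, at 13.04 and 12.73, so markers of epithelium and of fat were both present. In whole tissue, fewer cells of a type and less RNA per cell cannot be told apart, and the part of these shifts in the chaperone differences was not tested.

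Dnajc15, a J protein of the mitochondrial inner membrane that works at the import channel, showed the largest difference of the 61. Its level was 8.90 at the lowest, 9.20 at the median and 9.37 at the highest in treated rats, against 8.42, 8.755 and 9.10 in control rats. All 12 treated rats lay above the control mean and 8 above the highest control rat, although the ranges overlapped. The difference was 0.42 ± 0.07 (SE) on the log2 scale, a 1.34-fold level (adjusted p = 8.08e-05).

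Dnaja3, the J protein of the mitochondrial matrix, ran between 7.18 and 7.78 in treated rats (median 7.45), against 6.99 and 7.54 in control rats (median 7.135). Again all 12 treated rats exceeded the control mean, and 3 exceeded every control rat. The difference was 0.30 ± 0.06 (adjusted p = 0.00124). Its partner Hspa9, the mitochondrial HSP70 or mortalin, which pulls incoming chains through the membrane, was at 10.04, 10.29 and 10.74 (lowest, median, highest) in treated rats, against 9.81, 9.95 and 10.40 in control rats. The difference of 0.28 ± 0.07 passed (adjusted p = 0.00574), with 12 of 12 treated rats above the control mean but only 1 above the highest control rat. Hspa9 has 2 dimmer probe sets, whose differences of 0.24 ± 0.09 (adjusted p = 0.0807) and 0.02 ± 0.06 (adjusted p = 0.855) did not pass, so the rise of Hspa9 rests on its brightest probe set.

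Hspe1, the lid of the mitochondrial chaperonin, was at 11.02, 11.34 and 11.71 in treated rats, against 10.86, 10.97 and 11.53 in control rats. Hspd1, the ring subunit HSP60, was at 11.60, 11.86 and 12.07 in treated rats, against 11.41, 11.64 and 11.91 in control rats. For each of these neighbours 11 of 12 treated rats lay above the control mean, and the differences were 0.26 ± 0.08 (Hspe1, adjusted p = 0.0196) and 0.22 ± 0.06 (Hspd1, adjusted p = 0.00937). Both lost the call under quantile normalization, with differences of 0.19 (adjusted p = 0.0892) and 0.15 (adjusted p = 0.0944). The control rats spread more widely than the treated ones for Hspd1, with SDs of 0.113 in treated and 0.183 in control rats, as the plot of single rats shows.

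**Figure D2:**
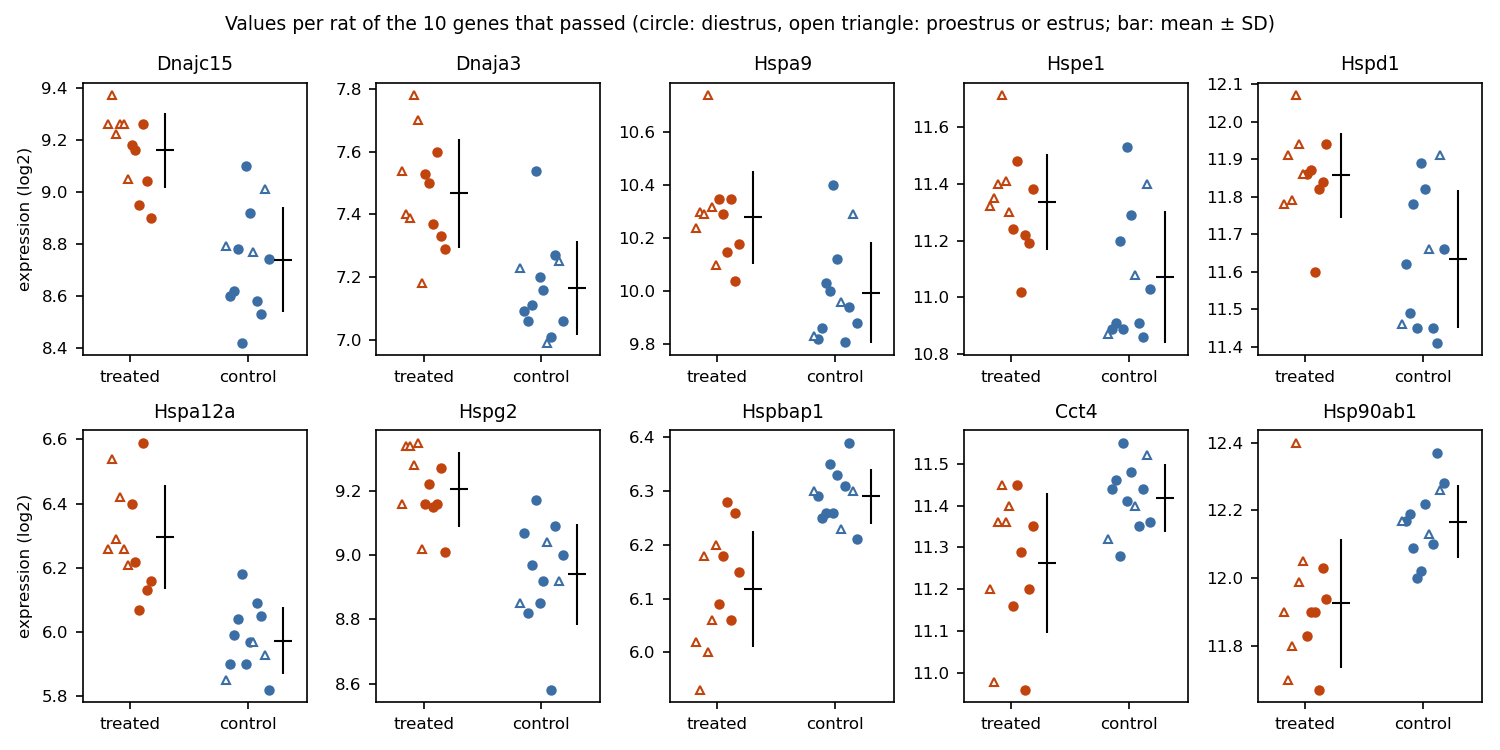
Expression (log2, vertical axis) of the 10 genes that passed, in 12 treated and 12 control rats; each point is 1 rat, filled circles are diestrus and open triangles proestrus or estrus, and the bar gives the mean ± SD. Treated and control rats overlap for every gene, and 9 treated rats of Hspa12a lie above all control rats.

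Most measured partners of these proteins in the mitochondrion rose as well. Of 14 listed and measured genes of the import motor, the processing and quality control proteases and the HSP90 homologue, 8 rose and 1 fell. Their median difference was 0.15, and of all probe sets 8.46% were called higher and 9.59% lower. Grpel1, the nucleotide exchange factor of Hspa9, averaged 9.46 ± 0.17 in treated and 9.05 ± 0.16 in control rats (SD, n = 12 each), a difference of 0.41 ± 0.07 (SE, adjusted p = 6.4e-05). Iscu, the scaffold on which Hspa9 helps to pass on iron-sulfur clusters, rose by 0.49 ± 0.08 and Pam16, the J-like partner at the import channel, by 0.34 ± 0.06 (adjusted p = 0.000114 and 0.000254). The processing peptidase subunits Pmpca and Pmpcb, which cut off import signals, rose by 0.27 and 0.43, and Trap1, the mitochondrial HSP90, by 0.30 ± 0.06 (adjusted p = 0.00107). Yme1l1, a protease of the inner membrane, was the exception, at -0.19 ± 0.05 (adjusted p = 0.00686). These lists were compiled with results of the same arrays known, so they are no independent evidence of a direction.

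In the cytosolic and nuclear HSP70 family 1 of 7 members passed, a rise, beside 8.46% of all probe sets called higher. Hspa12a, a distant member of the family, was at 6.07, 6.26 and 6.59 (lowest, median, highest) in treated rats, against 5.82, 5.97 and 6.18 in control rats. All 12 treated rats stood above the control mean and 9 above every control rat. The difference was 0.32 ± 0.05 (adjusted p = 0.000114), a 1.25-fold level. Its relative Hspa12b, known from endothelial cells, differed by 0.00 ± 0.04.

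The inducible members of the family did not pass. Hspa1a, the classical heat-inducible HSP70, was at 8.16, 8.425 and 8.75 in treated rats, against 8.20, 8.54 and 9.17 in control rats, with a difference of -0.16 ± 0.09 (adjusted p = 0.236). Control rat 5 held the highest value. Hspa1a and Hspa1b are near-identical copies, so the signal of this probe set cannot be assigned to 1 of them with certainty. Hsph1, the HSP110 that exchanges nucleotides on HSP70, was at 8.75, 9.36 and 9.76 in treated rats, against 8.78, 9.055 and 9.38 in control rats. Its difference of 0.21 ± 0.09 missed the threshold (adjusted p = 0.127). Without treated rat 7, which held the lowest value, it was 0.26 (adjusted p = 0.0369). Hspa4, Hspa1l and Hspa2 lay between -0.01 and 0.05.

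Of the 5 heat shock factors and their regulators measured, none passed, and Hsf1, the main heat shock factor, averaged 8.07 ± 0.13 in treated and 8.05 ± 0.11 in control rats. Among 22 co-chaperones of HSP70 and HSP90, Bag1, a nucleotide exchange factor, rose by 0.18 ± 0.05 (adjusted p = 0.00735). Sugt1 and Tsc1, both HSP90 partners, fell by 0.17 and 0.19 on the log2 scale (adjusted p = 0.0254 and 0.036). Of the 22 genes 1 thus rose and 2 fell, beside 8.46% and 9.59% of all probe sets. Fkbp5, a co-chaperone of steroid receptors, averaged 8.28 ± 0.55 in treated and 7.84 ± 0.58 in control rats, and with that spread its difference of 0.44 ± 0.22 did not pass (adjusted p = 0.178).

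Both HSP90 genes were lower in treated rats and 1 passed, beside 9.59% of all probe sets called lower. Hsp90ab1, the constitutive cytosolic HSP90, was at 11.67, 11.90 and 12.40 in treated rats, against 12.00, 12.17 and 12.37 in control rats. Of the 12 treated rats 9 lay below every control rat, while treated rat 14 held the highest value of all 24. The difference was -0.24 ± 0.06 (adjusted p = 0.00602), a 0.846-fold level, and a dimmer probe set gave -0.35 ± 0.14 (adjusted p = 0.0867). Hsp90b1, the HSP90 of the ER, averaged 11.14 ± 0.24 in treated and 11.28 ± 0.17 in control rats, a difference of -0.14 ± 0.08 that did not pass (adjusted p = 0.244) except under quantile normalization (-0.23, adjusted p = 0.0426).

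Of the CCT subunits, which together form the ring that folds actin and tubulin, 1 of 7 fell. Of all probe sets 9.59% were called lower. Cct4 was at 10.96, 11.32 and 11.45 in treated rats, against 11.28, 11.43 and 11.55 in control rats. Treated rats 7 and 11 held the lowest values, at 10.96 and 10.98, and 10 of 12 treated rats lay below the control mean. The difference was -0.15 ± 0.05 (adjusted p = 0.0406), close to the threshold. Without treated rat 7 it was -0.13 (adjusted p = 0.0725), and without treated rat 11 also -0.13 (adjusted p = 0.0761). Of the 7 differences 6 were below 0, as were those of 8104 of all 15866 probe sets. Differences between subunits were not tested. Cct5 was at -0.14 ± 0.07 (adjusted p = 0.174), Cct7 at -0.13 ± 0.07 (adjusted p = 0.247), Cct3 at -0.04, Cct2 and Cct6a at -0.03 and Cct8 at 0.05 ± 0.08. Cct1, which is filed under its symbol Tcp1, differed by -0.06 ± 0.07 (adjusted p = 0.669).

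Among 9 measured helpers of the chaperonin, 2 rose and 3 fell, beside 8.46% and 9.59% of all probe sets. The phosducin-like regulators Pdcl and Pdcl3 were at -0.24 ± 0.05 and -0.23 ± 0.05 (adjusted p = 0.00161 and 0.00307). Of prefoldin, the complex that hands chains to CCT, Pfdn5 was at -0.24 ± 0.06 (adjusted p = 0.00792), whereas Pfdn4 rose by 0.36 ± 0.10 and Pfdn6 by 0.24 ± 0.07 (adjusted p = 0.0122 and 0.0169).

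None of the 8 ER members passed, and 1 had an unadjusted p under 0.05, beside 29.1% of all probe sets. Hspa5, the ER HSP70 or BiP, which senses unfolded chains, was at 9.70, 10.22 and 10.50 in treated rats, against 9.89, 10.24 and 10.80 in control rats, a difference of -0.11 ± 0.09 (adjusted p = 0.494). Its J proteins Dnajb9, Dnajb11, Dnajc3 and Dnajc10 differed by 0.01 to 0.04. None of the 3 genes with an ER stress element in the promoter passed. Of all probe sets, 8.46% were called higher and 9.59% lower in single rats. In the wider list of 24 ER chaperones and genes of the unfolded protein response, 3 fell and none rose. These were Eif2ak3 and Xbp1, a sensor and a transcription factor of that response, at -0.23 ± 0.05 and -0.26 ± 0.07, and the lectin chaperone Canx at -0.13 ± 0.05 (adjusted p = 0.00152, 0.00971 and 0.0498).

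The 6 small heat shock proteins, which hold unfolding proteins without ATP, gave no call and no unadjusted p under 0.05. Of all probe sets 18.1% were called and 29.1% had such a p. Hspb1, the most widespread of them, was at 8.15, 8.87 and 9.17 in treated rats, against 8.48, 8.83 and 9.40 in control rats (difference -0.13 ± 0.12, adjusted p = 0.56). Hspb6 and Hspb7, both known from muscle, were at 0.06 each, and Hspb8, a partner of Bag3, at -0.07 ± 0.08. The 14 skeletal muscle markers averaged 6.06 in treated and in control rats.

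None of the 23 other J proteins passed. Of these 23, 4 had an unadjusted p under 0.05, beside 29.1% of all probe sets. Dnajb4, a cytosolic partner of HSP70, came nearest, at 8.09, 8.405 and 8.74 in treated rats, against 8.24, 8.585 and 8.78 in control rats (difference -0.18 ± 0.06, adjusted p = 0.0539). Dnajc13, which acts in endosomal sorting, differed by -0.15 ± 0.06 (adjusted p = 0.0724). Dnajb13 differed by 0.10 ± 0.05 and Dnajc5, a chaperone of synaptic vesicles, by 0.07 ± 0.03 (adjusted p = 0.12 and 0.154). The heat-inducible Dnajb1 and the cytosolic Dnaja1, both partners of HSP70, were at 0.04 ± 0.05 and 0.08 ± 0.06. Of the 5 genes with an exact heat shock element in the window, Hspd1 and Hspe1, which share theirs, thus rose. Cct4 fell, and Hsph1 and Dnaja1 did not pass.

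The name pattern also takes in 3 genes with no chaperone fold, and 2 of them passed, beside 18.1% of all probe sets. Hspg2 encodes perlecan, a heparan sulfate proteoglycan of basement membranes. It was at 9.01, 9.19 and 9.35 in treated rats, against 8.58, 8.945 and 9.17 in control rats, with 12 of 12 treated rats above the control mean and a difference of 0.26 ± 0.05 (adjusted p = 0.00102). Hspbap1, a protein that binds Hspb1, was at 5.93, 6.12 and 6.28 in treated rats, against 6.21, 6.295 and 6.39 in control rats. Of the 12 treated rats 10 lay below every control rat, and the difference was -0.17 ± 0.04 (adjusted p = 0.00109). Hspbp1, a nucleotide exchange factor of HSP70 built of armadillo-like repeats, differed by -0.03 ± 0.06.

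The pools measured the same contrast on mixtures of the same rats. In pools of 2, 4 of the 61 genes rose (6.56%) and none fell, beside 8.82% of all probe sets called, 5.15% higher and 3.67% lower. An unadjusted p under 0.05 was reached by 12 of the 61 and by 20.8% of all probe sets. Without the control pool of rats 5 and 6, or that of rats 8 and 9, 2 genes passed. In pools of 3, 1 rose and 1 fell (3.28% together), beside 6.24% of all probe sets called, 3.26% higher and 2.97% lower, and 15 of the 61 had an unadjusted p under 0.05, beside 19% of all. Dnajc15 was at 9.01 to 9.41 in the 6 treated pools of 2, against 8.58 to 9.02 in the 6 control pools, a difference of 0.45 ± 0.09 (adjusted p = 0.00547). In pools of 3 it was at 9.28, 9.31, 9.27 and 8.98 in treated pools, against 8.92, 8.97, 8.88 and 8.87 in control pools. These did not overlap, and the difference was 0.30 ± 0.08 (adjusted p = 0.0466). The 4 arrays of the treated pool of 12 gave 9.21 to 9.27, against 8.90 to 9.01 in the control pool, a mean difference of 0.28 that has no test, since each pool is 1 mixture.

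Hspa12a was at 6.11 to 6.50 in treated pools of 2, against 5.81 to 6.08 in control pools, with no overlap and a difference of 0.37 ± 0.07 (adjusted p = 0.00352). In pools of 3 its difference was 0.26 ± 0.10 (adjusted p = 0.161) and in the pools of 12 it was 0.23. Dnaja3 was at 7.32 to 7.77 in treated pools of 2, against 7.09 to 7.43 in control pools (0.30 ± 0.08, adjusted p = 0.0258), and differed by 0.20 ± 0.07 in pools of 3 (adjusted p = 0.132). Hspg2 passed in pools of 2 (0.20 ± 0.05, adjusted p = 0.0337) and was at 0.28 ± 0.09 in pools of 3 (adjusted p = 0.083).

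The other mitochondrial genes did not pass in the pools. Hspa9 differed by 0.30 ± 0.10 in pools of 2 (adjusted p = 0.0732), by 0.12 ± 0.07 in pools of 3 (adjusted p = 0.396) and by 0.28 in pools of 12. Hspe1 differed by 0.26 ± 0.10, 0.14 ± 0.07 and 0.18, and Hspd1 by 0.20 ± 0.09, 0.20 ± 0.07 and 0.17 in these same designs (adjusted p between 0.127 and 0.306 in the pools of 2 and 3). The control pool of rats 13 and 15 held the highest Hspd1 value of all pools of 2, 12.01, and these rats were at 11.78 and 11.89 on their own arrays. Hsp90ab1 was at -0.14 ± 0.08 in pools of 2 (adjusted p = 0.349), -0.23 ± 0.10 in pools of 3 (adjusted p = 0.259) and -0.15 in pools of 12. Cct4 was at -0.18 ± 0.07, -0.23 ± 0.09 and -0.20, and Hspbap1 at -0.14 ± 0.06, -0.19 ± 0.06 and -0.09 in the same order of designs, and none of these passed. Dnajb4, which missed the threshold in single rats, was the 1 gene that fell in pools of 3. Its values there were 8.46, 8.44, 8.37 and 8.54 in treated pools, against 8.61, 8.65, 8.80 and 8.79 in control pools, a difference of -0.26 ± 0.07 (adjusted p = 0.0478). Both calls in pools of 3 were lost without any 1 of 6 pools, those of treated rats 4, 10 and 11, of 7, 12 and 14 and of 2, 3 and 5, and of control rats 12, 14 and 15, of 2, 3 and 5 and of 6, 8 and 9, and 1 remained without control rats 10, 11 and 13.

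**Figure D3:**
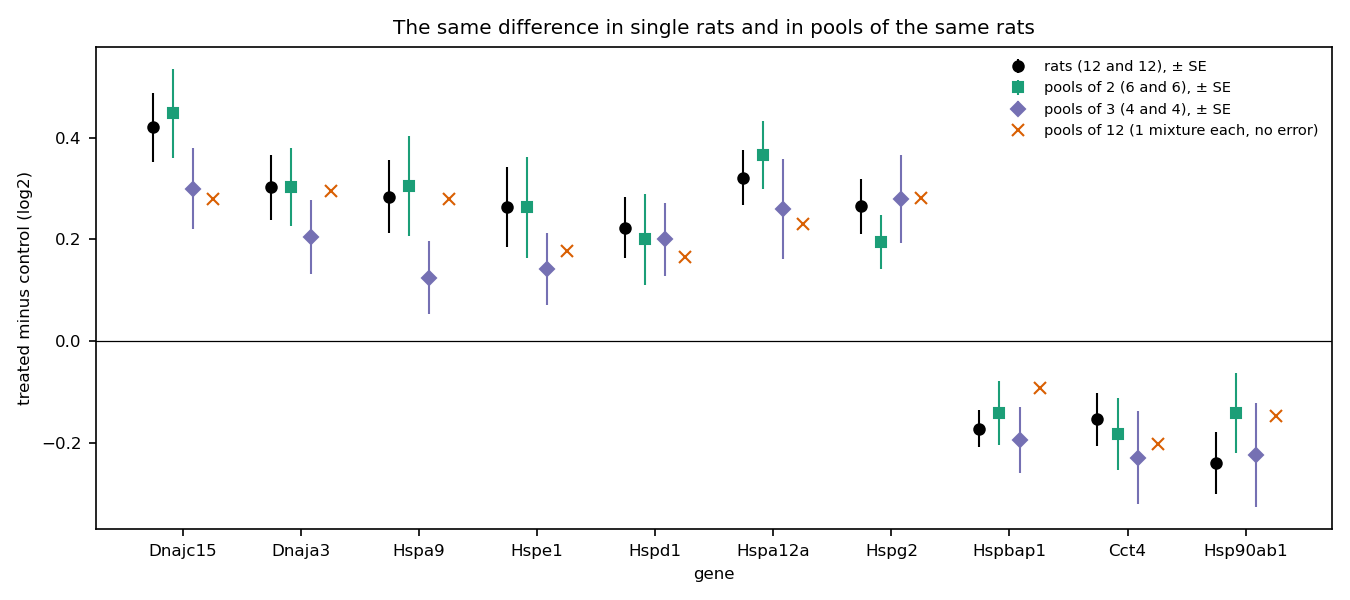
Treatment difference (treated minus control, log2, vertical axis) of the 10 genes that passed in single rats (horizontal axis), in single rats (circles), pools of 2 (squares) and pools of 3 (diamonds), each ± SE, and in pools of 12 (crosses, no error). For Dnajc15 the values are 0.42, 0.45, 0.30 and 0.28.

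The stage of the estrous cycle gave no call for any probe set (limma, adjusted p), and 3.66% of all probe sets and 5 of the 61 genes had an unadjusted p under 0.05. First among the 61 by p came Dnajc12, a J protein that serves the aromatic amino acid hydroxylases, higher by 0.15 ± 0.05 in proestrus or estrus than in diestrus (adjusted p = 0.9985). Its treated rats averaged 7.67 ± 0.09 (SD, n = 6) in proestrus or estrus and 7.52 ± 0.12 (n = 6) in diestrus, and its control rats 7.69 ± 0.15 (n = 3) and 7.54 ± 0.12 (n = 9). Dnaja4 and Hspb8 followed with 0.10 ± 0.04 and 0.19 ± 0.07 (adjusted p = 0.9985 each).

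The test of whether the treatment difference itself depended on stage called 0 probe sets as well. It had an unadjusted p under 0.05 for 2 of the 61 genes and 2.03% of all probe sets. Dnajc7, a J protein of HSP90 and HSP70 complexes, was at 9.20 ± 0.10 in treated diestrus rats and 9.38 ± 0.09 in control diestrus rats (SD, n = 6 and 9), but at 9.30 ± 0.09 and 9.20 ± 0.20 outside diestrus (n = 6 and 3). The interaction was 0.28 ± 0.10 (limma, unadjusted p = 0.0075, adjusted p = 0.9997), and control rat 3 held the lowest value, 8.97. Dnajb9 had an interaction of -0.36 ± 0.17 and Dnajc17 one of 0.11 ± 0.07 (adjusted p = 0.9997 each).

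Within diestrus 4 of the 61 genes passed, 3 higher and 1 lower, beside 10% of all probe sets called, 4.73% higher and 5.26% lower. Outside diestrus, with 6 treated and 3 control rats, 1 passed, a rise, beside 1.91% of all probe sets called and 1.57% called higher. Dnajc15 differed by 0.38 ± 0.08 within diestrus (adjusted p = 0.00438) and by 0.38 ± 0.11 outside it (adjusted p = 0.0832). Hspa12a passed in both, at 0.27 ± 0.07 and 0.41 ± 0.09 (adjusted p = 0.0154 and 0.0252). Dnaja3 was at 0.27 ± 0.09 and 0.34 ± 0.11, and Hsp90ab1 at -0.28 ± 0.08 and -0.21 ± 0.11, and both passed within diestrus alone (adjusted p = 0.045 and 0.0255), with interactions that did not pass. The counts leaned on single rats: within diestrus 1 gene passed without treated rat 7, 2 without treated rat 4 and 7 without treated rat 6, and outside diestrus 0 passed without treated rat 11 or control rat 3, 8 or 10, 2 without control rat 5 or 15 and 5 without treated rat 3.

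The median SD between rats of 1 group was higher for the 61 genes than for all probe sets. Each of the 61 is the brightest probe set of its gene, while all probe sets include dim ones. No comparison at equal brightness was made. The SD between rats had a median of 0.135 over the 61 genes, against 0.117 over all probe sets, and 40 of the 61 lay above the latter value. Between repeat arrays of 1 rat or 1 pool the medians were 0.0895 and 0.0962. The largest SDs between rats were those of 6 genes. Hspb1 had an SD of 0.324 between rats and 0.101 between repeat arrays, Hsph1 0.242 and 0.0612, Hspa5 0.239 and 0.0871, and Hspa1a 0.227 and 0.0541. Dnajb9 and Cct2 followed with 0.222 and 0.213 between rats, and the heat-inducible Dnajb1 was at 0.126. At the other end, Hspb2, Hspb3 and Hspa2 had SDs between rats of 0.0674 to 0.0683. For 48 of the 61 genes the SD between rats exceeded that between repeat arrays, and Dnajc27 (0.0727 against 0.132) was among those where it did not. This is a description, with no test.

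**Figure D4:**
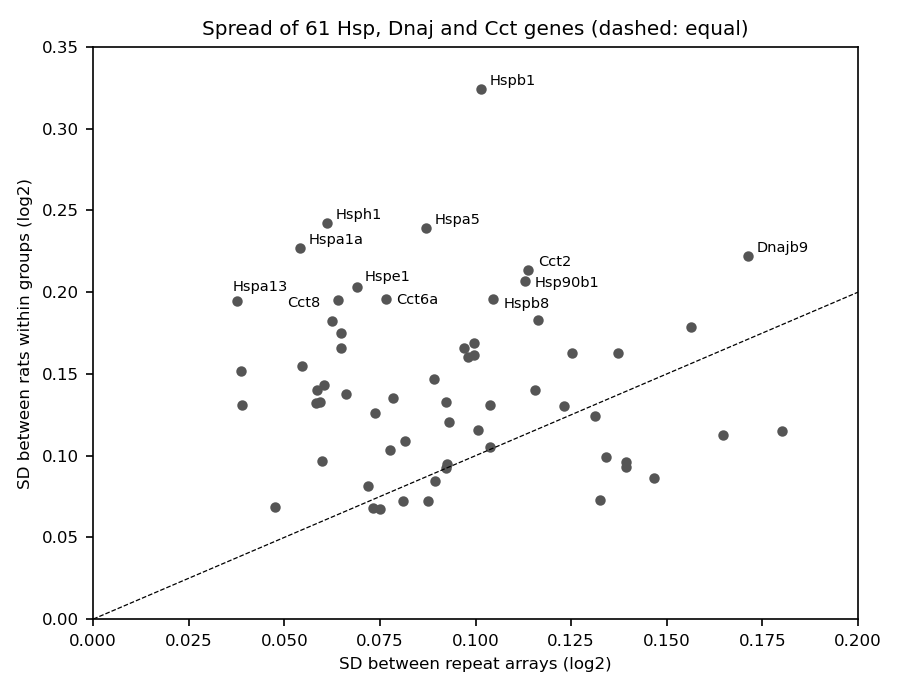
SD between rats within their group (log2, vertical axis) against SD between repeat arrays (log2, horizontal axis) for the 61 genes, 1 point each; points above the dashed line vary more between rats than between arrays. The 12 genes with the largest SD between rats are named, and Hspb1 stands highest at 0.324.

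Rats that were high in Hspd1 were high in Hspe1, and those high in Hspa5 were high in Hsp90b1. Correlations were taken over 24 rats from deviations from the group mean, with permutation within groups, for 5 pairs, adjusted over these. Hspd1 and Hspe1, the neighbours that share a promoter region, correlated at r = 0.906 (Spearman rho = 0.887, permutation test, two-sided, adjusted p = 5e-05 for each, the smallest the permutations allow before adjustment being 1e-05). The relation was 0.837 in treated and 0.942 in control rats, and 0.876 without the 2 rats farthest from the median of Hspd1. Hspa5 and Hsp90b1, both with ER stress elements, correlated at r = 0.752 (rho = 0.677, permutation, adjusted p = 0.0001 and 0.00113), and at 0.713 without the 2 farthest rats. Hsph1 and Dnajb1, a pair of heat-inducible genes, reached r = 0.436 (rho = 0.343, permutation, adjusted p = 0.0627 and 0.111), with 0.737 in treated and -0.203 in control rats and 0.252 without the 2 farthest rats, and it did not pass. Whether that relation differs between the groups was not tested. No pairs beyond the 5 were correlated for comparison, and a part of promoter sequence in these correlations was not tested.

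A further 2 pairs were added after the data had been seen. Hspa1a and Hspd1 ran against each other, with r = -0.761 (rho = -0.726, permutation, adjusted p = 0.000167 and 0.00113), -0.835 in treated and -0.739 in control rats, and -0.734 without the 2 farthest rats. Hspa1a and Hsph1, both heat-inducible, gave r = -0.298 (rho = -0.399, permutation, adjusted p = 0.133 and 0.0714). Values of 1 rat share an array. A technical score, each array's place on the leading component of differences among repeats, averaged -0.616 ± 6.27 in treated and 0.616 ± 6.77 in control rats (SD, n = 12 each), and with that score removed the 5 correlations were 0.91, 0.771, 0.432, -0.762 and -0.334 in the order given.

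**Figure D5:**
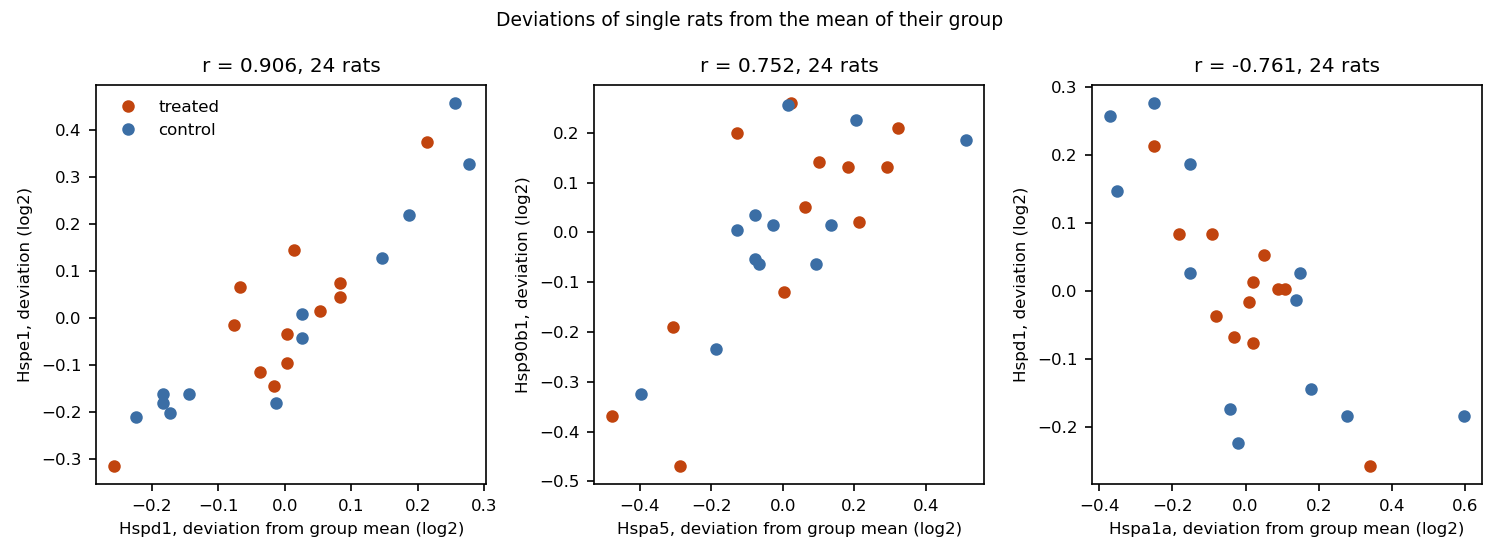
Deviations of 24 rats from the mean of their group (log2, both axes) for Hspd1 and Hspe1, Hspa5 and Hsp90b1, and Hspa1a and Hspd1; each point is 1 rat, treated or control by colour. Hspd1 and Hspe1 lie along a rising line (r = 0.906), and Hspa1a and Hspd1 along a falling one (r = -0.761).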

How the data were processed

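Mammary gland RNA of female Wistar Furth rats was measured on 56 single-colour arrays. Per the labels' protocols, 5 µg of RNA per rat was labelled and fragmented, and pools combined equal amounts of the fragmented targets to 10 µg. The deposited table holds 1 value for each probe set on each array. Its log2 unit was inferred from the range of the deposited values, 4.12 to 14.08. How the authors corrected background and normalized and with which software was not stated in the sources used here. On the later pool-of-12 arrays the source field says individual and title and description say pool; they were used as repeats of the pools.

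The 57 control probe sets were left out, and 15866 were tested with no filter on dim ones. Symbols came from the platform annotation, updated by Entrez ID to the RefSeq genes of GRCr8 for 12748 probe sets; 12783 carried 1 symbol, 312 several and 2771 were not listed. Differences are treated minus control from limma 3.58.1 (lmFit and eBayes, R 4.3.3), with Benjamini-Hochberg adjustment over all probe sets and a threshold of 0.05. The stage test took treatment as a covariate, and the treatment difference per stage came from a model of 4 groups. The script was tested on simulated data. SDs between repeat arrays came from treated rat 3, control rat 3 and both pools of 12. Correlations used 100000 permutations within groups. Precision is limited by how many rats there are, since pools and repeat arrays add no animals. The limma p-values measure the spread between these rats or, for the pools, between mixtures of them.

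The 61 members, their roles, the gene lists, the motifs and the tests were chosen with earlier results of these data known. The text names the genes past the threshold, members chosen by name and every Cct gene, the 6 with the largest SD between rats, the 3 smallest p for stage and for the interaction, the largest differences in pools, and up to 4 genes of each partner list with the smallest p. Other members and partners were named as examples after their values were seen. Pairs planned with Hspa1b and Hspa8 were not run, since these genes have no probe set of their own. Alternatives were median centring, quantile normalization, a filter on dim probe sets, an intensity trend, array weights, stage or the technical score as a covariate, another probe set, a stricter threshold, a replicate block and leaving out each rat or pool.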

Additional observations from a re-analysis of the deposited data

Results flagged for a closer look

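Of 210 groups of 4 to 10 values examined for the 30 named genes, 11 held a value standing apart from the rest by Dixon's criterion, which chance alone meets in about 1 of 20 groups. The treated pool of rats 4 and 7 stood low for 4 genes: Cct5 at 10.64 (median of the other treated pools of 2, 11.02), Dnajb1 at 8.46 (8.83), Hsp90ab1 at 11.73 (12.06) and Hsp90b1 at 10.90 (11.28). Of these rats, treated rat 7 also held the lowest Hsp90ab1 and Hsp90b1 values of the 12 treated rats on its own array, at 11.67 and 10.67. The treated pool of rats 4, 10 and 11 was low for Hsp90ab1, at 11.74 against 12.12, and the treated pool of rats 6, 8 and 9 for Dnajc15, at 8.98 against 9.28.

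Treated rat 14 was high among the treated rats outside diestrus for Hspa9, at 10.74 (median of the others 10.29), and for Hspe1, at 11.71 (11.35). Treated rat 6 was low among the treated diestrus rats for Hspd1, at 11.60 (11.86). Control rat 14 was high among the control diestrus rats for Dnaja3, at 7.54 (7.10). The control pool of rats 5 and 6 was high for Dnajc17, at 7.19 (7.03).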

How the results depend on the processing

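In single rats, 10 of the 61 genes passed, and 8 to 13 did so under the other settings. Quantile normalization gave 5 higher and 5 lower in place of 7 and 3, since Hspd1 and Hspe1 lost and Cct5 and Hsp90b1 gained the call. Taking the second probe set, which 16 of the 61 genes have, left 8, without Hspa9 and Hsp90ab1. Of the 10 called genes only these have another probe set, so the others could not change there. Array weights gave 13. Leaving out 1 rat gave 9 to 12. Cct4 was the least stable call, lost in 15 of 36 alternatives. Dnajc15, Dnaja3, Hspa12a, Hspg2 and Hspbap1, which have 1 probe set each, kept their call in every alternative that could change it. Hspa9 and Hsp90ab1 lost it with the second probe set. Hspd1 lost it under quantile normalization, and Hspe1 there and at a threshold of 0.01.

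With a replicate block on the 10 rat numbers both groups share, 11 genes passed, and the same rats without the block gave 11 as well; Hsph1 gained the call in both (0.31 in both), while Cct4 lost it. Deviations of rats with the same number correlated at -0.389 to 0.358, with 5 of 10 over 0.1. Rats of different numbers were not correlated for comparison, so these values do not settle whether the numbers pair the rats.

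In pools of 2, where 4 passed, leaving out 1 pool gave 2 to 6. In pools of 3, where 2 passed, 0 did with an intensity trend in the prior, 4 with the technical score as a covariate and 0 without the pools that hold treated rat 3 or control rat 3, the last 2 settings chosen after seeing the data; leaving out 1 pool gave 0 to 2. Leaving out 1 rat gave 1 to 7 within diestrus and 0 to 5 outside it, and 0 for stage and for the interaction. The causes were not tested. No alternative run turned the direction of a called gene.

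The smallest called differences, -0.15 for Cct4 and -0.17 for Hspbap1, lie close to the median SD between rats of these genes, 0.135, and the pools hold only 4 or 6 mixtures a group. Signal over background was not stated in the sources used here, so how far dim probe sets such as that of Hspa12a stood above it is unknown.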

Other observations

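Hspa13, an HSP70 of the ER membrane, had the same mean in both groups, 6.37, but SDs of 0.0605 in treated and 0.268 in control rats. It was singled out after its values were seen. Control rat 15 stood at 7.16, while the other 23 rats lay between 6.16 and 6.48. Its array also had the highest technical score of the single-rat arrays, 15.1, and a part of that score in its values was not tested. The control pools that hold this rat, with rat 13 and with rats 12 and 14, were at 6.45 and 6.39, inside the range of the other control pools of 2 and 3, 6.25 to 6.48.

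Control rats 13 and 15, both in diestrus, also held high values of the mitochondrial chaperonin for their group. Hspd1 was at 11.78 and 11.89 and Hspe1 at 11.20 and 11.53 in these rats, against medians of 11.64 and 10.97 over the 12 control rats. They were not alone in this. Control rats 8 and 2 exceeded rat 13 in both genes, at 11.91 and 11.82 for Hspd1 and 11.40 and 11.29 for Hspe1. Rats 13 and 15 were at the low end of Hspa1a, at 8.22 and 8.20, with a control median of 8.54.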
